A study of Mus musculus with 4 samples.

Results

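The TNF superfamily is a set of cytokines, most of them trimeric proteins of the cell surface, and of the receptors that bind them. Its genes were taken by symbol from the annotation of an Illumina array: every gene whose symbol starts with Tnfsf or Tnfrsf, plus Tnf, Lta, Ltb, Ltbr, Fas, Fasl, Cd27, Cd40, Cd40lg, Cd70 and Ngfr. This gave 42 of the 16593 genes measured, 17 ligands and 25 receptors. RNA of whole liver was measured in 2 TAK1 KO samples and 2 WT samples, 1 array each, from untreated C57BL/6 mice 4 weeks old, labelled male. TAK1 KO mice carried a floxed TAK1 gene and Cre under the albumin promoter, which is active in hepatocytes, and the WT mice carried the floxed gene without Cre, so that Cre and the deletion differ together. The labels name no deletion in other liver cells. Nothing in the labels tells if samples of a group were separate animals, and p-values then measure only the spread between these samples, which may be technical.

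Ligands of this family bind to receptors with cysteine-rich domains outside the cell. Some receptors carry a death domain, through which they can start apoptosis or necroptosis. Others bind TRAF adaptors and pass the signal to NF-kB and to the kinases JNK and p38, and a few lack a working cytoplasmic part and act as decoys. TAK1, encoded by Map3k7, is the kinase that the TNF receptor complex recruits to switch on NF-kB and JNK. In hepatocytes the loss of this step is known to turn TNF from a survival signal into a death signal. The comparison shows how the genes of the ligands, the receptors and the proteins behind them differ in livers whose hepatocytes were made to lack the kinase.

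The 4 arrays had medians of 81.5 to 81.9 units of deposited intensity, and 40.6% to 40.9% of their 25697 probes lay above 100 units. Log2 values correlated across genes at 0.994 between the TAK1 KO arrays, 0.995 between the WT arrays and 0.970 to 0.973 between the groups, and genes are not independent replicates. On its only probe Map3k7 had 125.3 and 117.9 units in TAK1 KO livers, against 155 and 138.4 units in WT livers (log2 -0.26 ± 0.10 SE, n = 2 per group, limma adjusted p = 0.116). Where on the transcript this probe lies is unknown, and its level is therefore no test of the genotype. The labels call all 4 samples male, yet Xist, the RNA of the inactive X chromosome of females, had 575 and 653 units in TAK1 KO and 853.4 and 643.3 units in WT livers, and the Y-linked genes Eif2s3y and Kdm5d stayed below 100 units on every array (53.3 to 69.3 units). The Y-linked gene Uty had 112.4 to 142.2 units. A second Xist probe had 384.2 and 313.8 units in TAK1 KO and 503.5 and 448.1 units in WT livers and was lower in TAK1 KO (log2 -0.45 ± 0.12 SE, limma adjusted p = 0.032 over all named probes). The male label is thus at odds with Xist, Eif2s3y and Kdm5d in both groups, so no result can be given without the arrays concerned. Of the hepatocyte markers 7 of 7 lay above 100 units on at least 2 arrays and 0 passed the test, with sums of 119120.2 and 130197.9 units in TAK1 KO and 109576.3 and 110269.3 units in WT livers. The probe for albumin itself had only 190.5 to 214.4 units.

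When limma was fitted over all genes and its p-values adjusted, 4 of the 42 genes came below the threshold of 0.05. The receptors Tnfrsf12a, Tnfrsf21 and Tnfrsf1a rose in TAK1 KO livers and the receptor Fas fell. This is a smaller share than the background: 18.2% of all genes passed, 10.5% upward and 7.71% downward. Without WT replicate 1 the number of all genes that passed was 1827, and without WT replicate 2 it was 1800. The number among the 42 was 6 without TAK1 KO replicate 1, where Tnfrsf22 and Tnfsf8 also passed, and downward it was 2 without TAK1 KO replicate 2, where Tnfrsf14 also passed. An unadjusted p under 0.05 in limma was reached upward by 6 of the 42 genes and downward by 3. Of all 16593 genes 2570 reached it upward and 2073 downward. The median log2 difference was 0.02 over the 42 genes and -0.00 over all genes. Level sets what can be called. A total of 15 of the 42 genes (35.7%) lay above 100 units on at least 1 array, against 49.8% of all genes, and the 4 that passed were among these 15. Among all genes that bright 35.4% passed, 20.2% upward and 15.2% downward, and among the dimmer ones 1.16%. In 22 of the 42 genes the groups did not overlap, as in 53.7% of all genes.

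**Figure D1:**
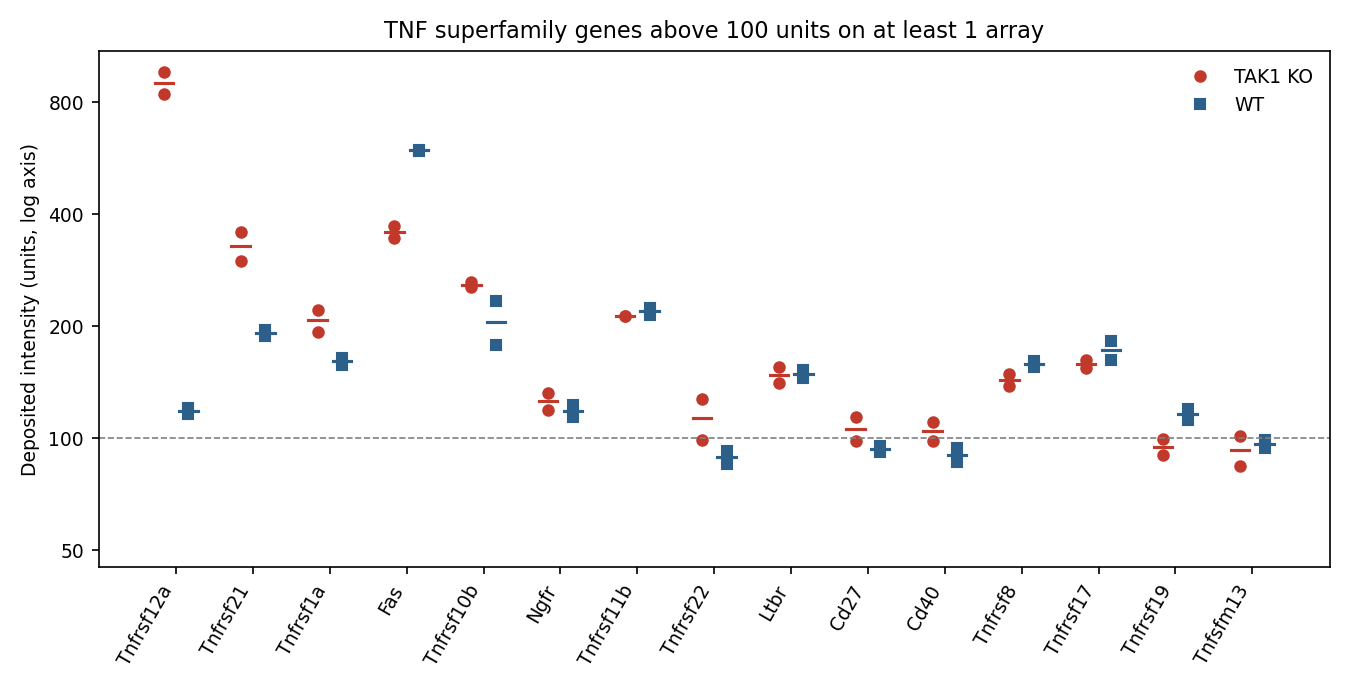
Deposited intensity on a log axis of the 15 TNF superfamily genes above 100 units on at least 1 of the 4 arrays, with TAK1 KO as red circles left of WT as blue squares and short lines at the group means. Tnfrsf12a stands at 841.3 and 963.5 units in TAK1 KO against 120.7 and 116 units in WT livers, Tnfrsf21 and Tnfrsf1a are higher and Fas is lower in TAK1 KO, and most other pairs lie close together. The dashed line marks 100 units.

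The level of 100 units, near the array's background, was the only cut between genes described with a fold and genes set apart. The 15 genes just above and far above it were Tnfsfm13 (highest value 101.5 units), Cd40, Cd27, Tnfrsf19, Tnfrsf22, Ngfr, Ltbr, Tnfrsf8, Tnfrsf17, Tnfrsf11b, Tnfrsf1a, Tnfrsf10b, Tnfrsf21, Fas and Tnfrsf12a. The highest values among the 27 genes left below it were 95.6 units for Tnfrsf14 and 93.5 units for Tnfsf8. A value below 100 units does not show that a gene is silent, since the files carry no detection call.

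The promoters of the 4 genes that passed are shown because these genes moved, 3 up and 1 down. Each runs from 250 bases before the transcription start to 50 bases after it, 5′ to 3′ on the gene's strand, from RefSeq on GRCm38.p6. That of Tnfrsf12a lies at chr17:23677400-23677699 on the minus strand, that of Tnfrsf21 at chr17:43016305-43016604, that of Tnfrsf1a at chr6:125349473-125349772 and that of Fas at chr19:34290409-34290708, the last 3 on the plus strand. Capitals mark matches, on either strand, to TGANTCA (the AP-1 consensus) and to GGGCGG (the GC box bound by Sp1, added after the promoters were seen). No printed match of one motif overlaps a match of the other.
Tnfrsf12a: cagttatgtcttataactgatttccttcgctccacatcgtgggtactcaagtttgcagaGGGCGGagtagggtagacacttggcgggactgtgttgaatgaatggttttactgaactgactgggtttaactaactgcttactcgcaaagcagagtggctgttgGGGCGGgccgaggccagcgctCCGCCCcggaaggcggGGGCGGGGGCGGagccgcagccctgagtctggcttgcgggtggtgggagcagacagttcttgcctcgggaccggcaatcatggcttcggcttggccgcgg
Tnfrsf21: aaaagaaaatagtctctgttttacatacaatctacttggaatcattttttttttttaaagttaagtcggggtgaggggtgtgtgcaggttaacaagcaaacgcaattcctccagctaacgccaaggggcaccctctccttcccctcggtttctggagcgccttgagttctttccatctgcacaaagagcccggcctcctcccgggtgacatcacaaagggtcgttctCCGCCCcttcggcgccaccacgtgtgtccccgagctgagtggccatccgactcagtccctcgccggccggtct
Tnfrsf1a: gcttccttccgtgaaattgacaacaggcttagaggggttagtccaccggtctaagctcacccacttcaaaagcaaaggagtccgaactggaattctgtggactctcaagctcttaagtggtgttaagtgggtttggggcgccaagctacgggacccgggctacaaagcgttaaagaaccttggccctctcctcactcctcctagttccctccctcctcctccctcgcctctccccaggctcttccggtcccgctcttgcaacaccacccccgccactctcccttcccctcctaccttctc
Fas: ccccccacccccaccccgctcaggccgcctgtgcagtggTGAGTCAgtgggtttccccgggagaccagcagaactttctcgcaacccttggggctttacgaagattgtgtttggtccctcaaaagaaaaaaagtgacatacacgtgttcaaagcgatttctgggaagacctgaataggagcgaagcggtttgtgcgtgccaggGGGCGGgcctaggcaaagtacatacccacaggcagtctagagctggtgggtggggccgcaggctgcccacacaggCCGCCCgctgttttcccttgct
The Fas promoter holds 1 AP-1 match, TGAGTCA at bases -211 to -205 from the start, and 2 GC boxes. Tnfrsf12a holds 5 GC boxes, Tnfrsf21 holds 1 and Tnfrsf1a holds 0. The NF-kB letters GGGNNTTTCC, a strict form of the site, have 0 matches in these 4 windows. Looser forms of the NF-kB site were not looked for. Over all 32851 promoters of this length 7.81% hold the AP-1 letters, 35.7% a GC box and 1.63% the NF-kB letters. Promoters were given for 32 of the 42 genes, and the NF-kB letters occur in those of Ltb, Tnfrsf9 and Tnfrsf25. None of these 3 genes reached 100 units on any array or passed the test. A match is only a match of letters. The 4 promoters are 53.7% to 59.7% G and C, where the median of all promoters is 52.7%.

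The largest difference in the family was in Tnfrsf12a, also called Fn14, the receptor for the cytokine TWEAK, which is known from injured liver, from bile duct progenitors and from stellate cells. It had 841.3 and 963.5 units in TAK1 KO livers, against 120.7 and 116 units in WT livers. The groups lay far apart, and the WT values were just above 100 units. The log2 difference was 2.88 ± 0.10 (SE, n = 2 per group; 95% confidence interval 2.65 to 3.11), a 7.36-fold rise with an adjusted p of 1.13e-06 in limma. The array holds 1 probe for this gene, so no further probe could be set beside it. Its ligand Tnfsf12 had 63.6 and 62.7 units in TAK1 KO and 66.7 and 60.4 units in WT livers, below 100 units on every array. Whole liver holds many cell types, and in such RNA more cells of a type and more RNA per cell cannot be told apart. Markers of several other cell types were also higher in the TAK1 KO livers, where 10.5% of all genes rose. Of the stellate cell markers 6 of 7 rose and 0 fell, with sums of 9405.4 and 12037.9 units in TAK1 KO and 4040.2 to 4609.2 units in WT livers, and 1 of the 7 (Lrat) stayed below 100 units. Bile duct markers rose in 1 of 4 cases, Sox9, with sums of 324.7 to 358.8 units in TAK1 KO and 265.3 to 291 units in WT livers. Sox9 and Krt7 exceeded 100 units on only 1 array each, TAK1 KO replicate 1 (104.4 and 112.4 units). Krt19 and Cftr stayed below 100 units on every array. The part of these cell types in the rise of Tnfrsf12a was not tested.

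Among the 6 receptors with a death domain, 2 rose, 1 fell and 3 did not pass, where 18.2% of all genes passed. Of the 6 receptors 5 lay above 100 units on at least 1 array, and 35.4% of all genes that bright passed. Tnfrsf21, known as death receptor 6, had 299.2 and 358.8 units in TAK1 KO livers, against 195.7 and 188.6 units in WT livers. The TAK1 KO arrays differed from each other, but both lay above both WT arrays. The log2 difference was 0.76 ± 0.11 (SE, n = 2 per group; 95% interval 0.51 to 1.00), a 1.69-fold rise (limma adjusted p = 0.00138). A second probe for Tnfrsf21 lay below 100 units on all arrays and showed no separation (75.8 and 87.9 units in TAK1 KO, 85.4 and 70.4 units in WT).

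Fas, the receptor for Fas ligand and a main death receptor of hepatocytes, had 346 and 371.5 units in TAK1 KO livers, against 595.3 and 592.2 units in WT livers. Values within each group were close and the groups did not overlap. Fas fell by 0.72 ± 0.09 on the log2 scale (SE, n = 2 per group), a 1.65-fold lower level (limma adjusted p = 0.000737). A second Fas probe showed the same direction and size. It had 160.4 and 186.2 units in TAK1 KO and 282.5 and 286.1 units in WT livers, a log2 difference of -0.70 ± 0.10 (SE; adjusted p = 0.0015 in limma over all named probes). Fas probe 3 lay below 100 units on every array. The ligand Fasl had 73 and 70.9 units in TAK1 KO and 80 and 71.3 units in WT livers, below 100 units throughout. Markers of sinusoidal endothelial cells, which also carry Fas, rose in 0 and fell in 1 of 7 cases (Lyve1), where 7.71% of all genes fell. Their sums were 7194.3 to 7379.8 units in TAK1 KO and 6890.7 to 6919.2 units in WT livers. Most of that sum was Clec4g, and the other 6 markers summed to 1563.1 to 1604.4 units in TAK1 KO, below the 1916.8 to 2035.2 units in WT livers. Stab2 and Tek were lower on both TAK1 KO arrays but did not pass, and Kdr was below 100 units on every array. Their part in the fall of Fas was not tested.

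Tnfrsf1a, TNF receptor 1, binds TNF and lymphotoxin alpha and is the receptor through which TNF acts on hepatocytes. Its brightest probe had 192.9 and 221.6 units in TAK1 KO livers, against 164.2 and 157.7 units in WT livers. The groups did not overlap, but the gap between them was no wider than the difference between the TAK1 KO arrays. The log2 difference was 0.35 ± 0.10 (SE, n = 2 per group), a 1.28-fold rise whose adjusted p of 0.0422 in limma was close to the threshold. The call was lost in 7 of 12 alternative settings. It did not survive leaving out WT replicate 1 (adjusted p = 0.14), WT replicate 2 (0.215) or TAK1 KO replicate 2 (0.209), nor a smaller background offset (0.0979), quantile normalization (0.0653) or a robust variance prior (0.0627). The other probes of Tnfrsf1a gave larger differences. The second had 201.2 and 223.2 units in TAK1 KO and 159.5 and 141.6 units in WT livers (log2 0.48 ± 0.10 SE, limma adjusted p = 0.0116). Probe 3 had 201.8 and 205.1 units in TAK1 KO and 138.4 and 146 units in WT livers (log2 0.50 ± 0.09 SE, limma adjusted p = 0.00472). In all 3 probes both TAK1 KO arrays lay above both WT arrays.

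**Figure D2:**
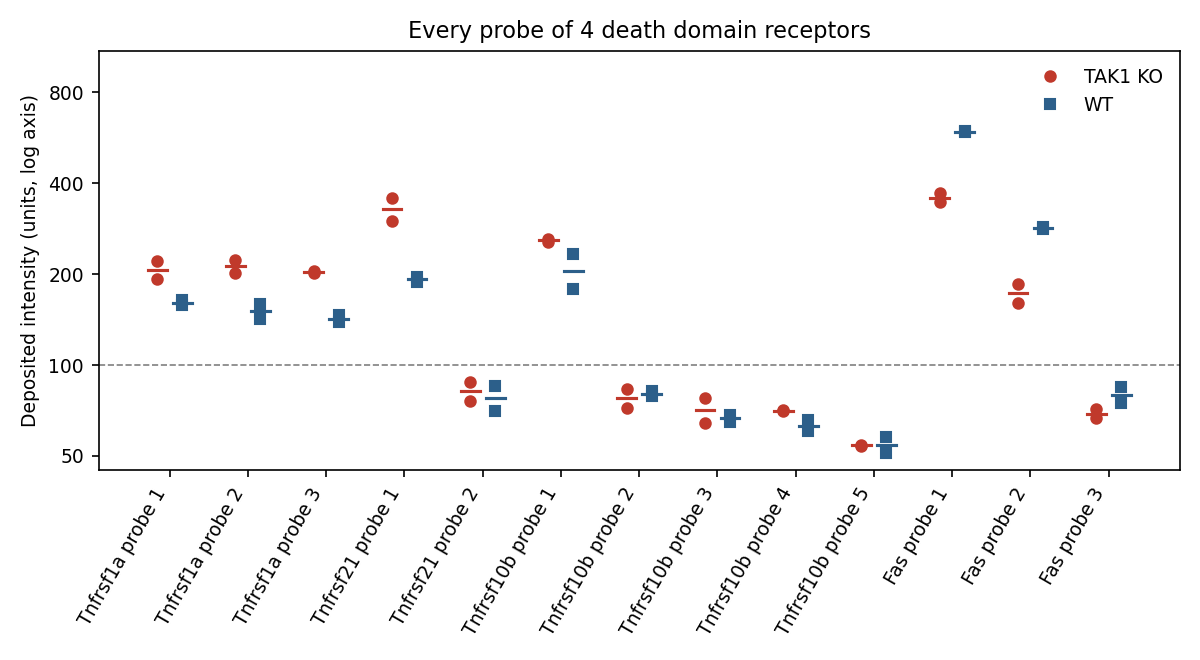
Deposited intensity on a log axis for every probe of Tnfrsf1a, Tnfrsf21, Tnfrsf10b and Fas, numbered by falling mean within a gene, with TAK1 KO as red circles left of WT as blue squares and lines at the group means. The 3 Tnfrsf1a probes are higher and the upper 2 Fas probes lower in TAK1 KO, and the second probe of Tnfrsf21 and probes 2 to 5 of Tnfrsf10b lie below the dashed line at 100 units.

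The other death domain receptors did not pass. Tnfrsf10b, the death receptor for TRAIL in the mouse, had 255 and 262.4 units in TAK1 KO livers, against 233.3 and 178.1 units in WT livers. Its WT arrays differed from each other by more than the gap between the groups, and the log2 difference of 0.34 ± 0.13 (SE, n = 2 per group) had an adjusted p of 0.116 in limma. It passed only without WT replicate 1 (log2 0.53, adjusted p = 0.0336). The other 4 probes of Tnfrsf10b lay below 100 units. Ngfr, the p75 neurotrophin receptor, had 119 and 132.7 units in TAK1 KO and 113.9 and 122.8 units in WT livers, with overlapping groups. Tnfrsf25, the receptor of the cytokine TL1A on T cells, stayed below 100 units. It had 71.1 and 75 units in TAK1 KO and 85.7 and 91.1 units in WT livers (adjusted p = 0.0929 in limma). A second Tnfrsf25 probe, also below 100 units, ran the other way with overlapping groups (log2 0.19 ± 0.11 SE).

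**Figure D3:**
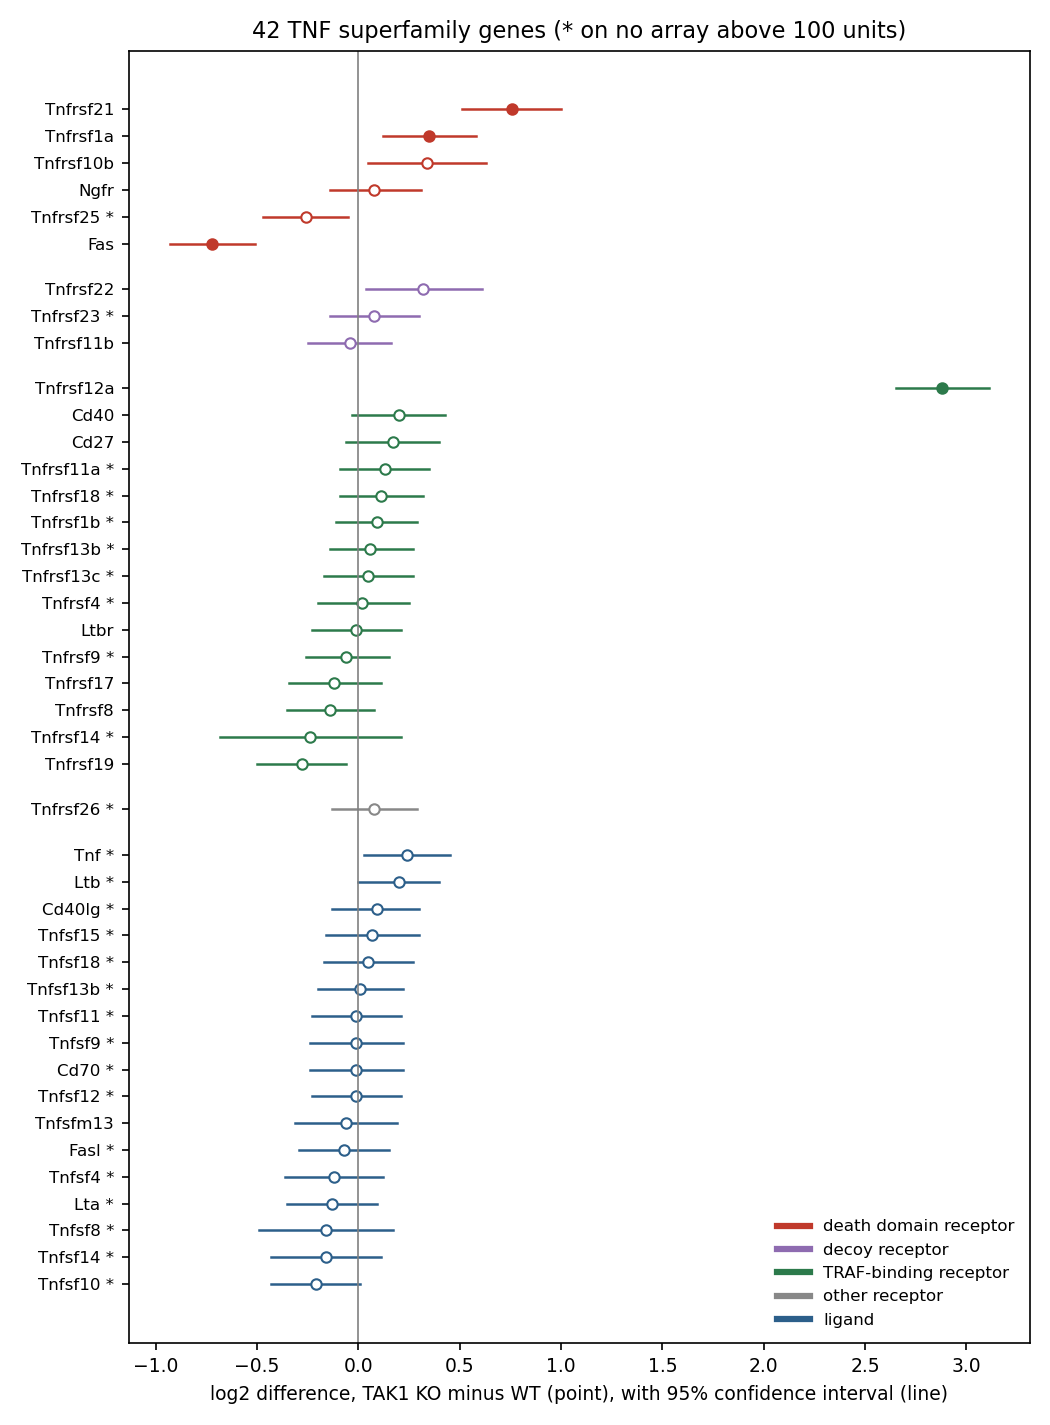
Log2 difference (TAK1 KO minus WT) with its 95% confidence interval for all 42 TNF superfamily genes, grouped by role, with filled points for adjusted p under 0.05. Tnfrsf12a stands alone at 2.88, Tnfrsf21 and Tnfrsf1a lie to the right of 0 and Fas lies at -0.72. The 17 ligands lie between -0.21 and 0.24. An asterisk marks genes on no array above 100 units, whose differences are compressed towards 0.

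Decoy receptors bind a ligand without passing the signal on. Tnfrsf11b, or osteoprotegerin, a secreted decoy for RANKL and TRAIL, had 212.6 and 213.2 units in TAK1 KO livers, against 224.1 and 214.4 units in WT livers. The values nearly met, and the 95% interval of the log2 difference ran from -0.25 to 0.16. Tnfrsf22, a decoy receptor for TRAIL found in the mouse, had 98.9 and 127.8 units in TAK1 KO and 92.4 and 85.4 units in WT livers (log2 0.32 ± 0.13 SE, adjusted p = 0.125 in limma). Only 1 TAK1 KO array was clearly above 100 units, and without the other one (TAK1 KO replicate 1) the adjusted p was 0.00313. Its other 2 probes lay below 100 units. Tnfrsf23, the related mouse decoy, had 54.1 to 62.3 units over the 4 arrays.

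Besides Tnfrsf12a, 14 receptors that signal through TRAF adaptors were measured, and 0 of them passed in limma, where 18.2% of all genes passed. Of these receptors 8 stayed below 100 units on every array, and 1.16% of all genes that dim passed. Among all genes above 100 units on at least 1 array 35.4% passed. Ltbr, the lymphotoxin beta receptor, which hepatocytes express, had 155.3 and 140.7 units in TAK1 KO livers, against 153 and 145.3 units in WT livers. The groups overlapped, and the 95% interval of the log2 difference ran from -0.23 to 0.21. Tnfrsf19, also called TROY, had 90 and 99.3 units in TAK1 KO livers, against 112.3 and 119.5 units in WT livers. Its groups were apart but the difference missed the threshold (log2 -0.28 ± 0.10 SE, limma adjusted p = 0.0833). A second Tnfrsf19 probe lay below 100 units on every array, with overlapping groups (log2 0.04 ± 0.09 SE). Tnfrsf8, or CD30, had 137.9 and 149.1 units in TAK1 KO and 161 and 155.1 units in WT livers, a small gap (limma adjusted p = 0.432). Its second probe, below 100 units on every array, ran the other way with overlapping groups (log2 0.13 ± 0.11 SE). Tnfrsf17, the BAFF and APRIL receptor of plasma cells, had 162.3 and 154.1 units in TAK1 KO and 182.4 and 161.9 units in WT livers (adjusted p = 0.548). Plasma cell markers changed in 0 of 4 cases, with sums of 5377.5 to 5729 units in TAK1 KO and 4642 to 5385.6 units in WT livers. Nearly all of that was Xbp1 and Sdc1, which hepatocytes also express, and Jchain and Mzb1 were below 100 units on every array. Dendritic cell markers were below 100 units on every array in 4 of 4 cases, with sums of 276.2 to 295.3 units in TAK1 KO and 246.4 to 278 units in WT livers. Cd40 and Cd27, which receive help signals on B cells, macrophages and T cells, were at the edge of the background. Cd40 had 98.6 and 110.9 units in TAK1 KO and 86.3 and 94.2 units in WT livers, and probes 2 and 3 for it ran the other way. Cd27 had 98.2 and 114.2 units in TAK1 KO and 95.1 and 92.1 units in WT livers. Its second probe ran slightly the other way (82.7 and 79.8 units in TAK1 KO, 85 and 84.9 units in WT). Probe 3 for Cd27 showed no difference (log2 0.00 ± 0.10 SE), and both lay below 100 units on every array.

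The remaining 8 TRAF-binding receptors stayed between 53.5 and 95.6 units on every array. They were Tnfrsf1b (TNF receptor 2), Tnfrsf4 (OX40), Tnfrsf9 (4-1BB), Tnfrsf11a (RANK), Tnfrsf13b (TACI), Tnfrsf13c (the BAFF receptor), Tnfrsf14 (HVEM) and Tnfrsf18 (GITR). The widest spread was in Tnfrsf14, with 56.3 and 95.6 units in TAK1 KO and 90.3 and 84.4 units in WT livers. It passed in limma only when TAK1 KO replicate 2 was left out (log2 -0.60, adjusted p = 0.000499). Tnfrsf26, with 79.1 and 73.2 units in TAK1 KO and 70.7 and 72.6 units in WT livers, was also below 100 units. Most of these receptors are known from lymphocytes. T cell markers rose in 1 of 6 cases, Cd8b1, where 10.5% of all genes rose. Their sums were 559.9 to 583.4 units in TAK1 KO and 507.3 to 511 units in WT livers. Without Cd8b1 the other 5 markers overlapped, with sums of 390.3 to 422.1 units in TAK1 KO and 385.2 to 392.7 units in WT livers. Cd3e, Cd3d and Cd3g exceeded 100 units on only 1 array each, and Cd4 and Cd8a were below 100 units on every array. B cell markers changed in 0 of 4 cases, with sums of 293.6 to 300.9 units in TAK1 KO and 303.3 to 311.6 units in WT livers, and Cd79a, Ms4a1 and Pax5 were below 100 units on every array.

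No ligand of the family passed in limma, where 18.2% of all genes passed and 1.16% of those below 100 units on every array. An unadjusted p under 0.05 in limma was reached by 1 of the 17 ligands, upward. Of all 16593 genes 2570 reached it upward and 2073 downward. Of the 17 ligands 16 were below 100 units on all 4 arrays, at 51 to 93.5 units, whereas 14 of 25 receptors exceeded 100 units on at least 1 array. Probes differ in brightness, so this counts genes near the background and does not rank ligands against receptors. Tnf itself had 60.3 and 64.3 units in TAK1 KO livers, against 51.7 and 52.4 units in WT livers. Both TAK1 KO values were higher, the adjusted p was 0.122, and it passed only with the smaller background offset (log2 0.53, adjusted p = 0.0386). Both groups lay near the background, where differences depend on the offset. Ltb, which forms lymphotoxin with Lta, had 89.1 and 91.7 units in TAK1 KO and 77.2 and 78.8 units in WT livers (adjusted p = 0.187). Lta had 64 and 67.3 units in TAK1 KO and 68 and 76.1 units in WT livers. Tnfsf10, which encodes TRAIL, a ligand carried by natural killer cells, had 71 and 72.5 units in TAK1 KO and 78.6 and 89.1 units in WT livers (adjusted p = 0.202).

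The other ligands showed no separation beyond their spread on their brightest probes. Groups overlapped in Fasl, Cd40lg, Cd70, Tnfsf4 (OX40 ligand), Tnfsf8 (CD30 ligand) and Tnfsf9 (4-1BB ligand). They also overlapped in Tnfsf11 (RANKL), Tnfsf12 (TWEAK), Tnfsf13b (BAFF), Tnfsf14 (LIGHT), Tnfsf15 (TL1A) and Tnfsf18 (GITR ligand). A second Tnfsf13b probe had 76.8 and 75.4 units in TAK1 KO and 66.2 and 58.1 units in WT livers. Its groups were apart, but it did not pass (limma adjusted p = 0.105 over all named probes). Tnfsf8 had 89.2 and 65.6 units in TAK1 KO and 93.5 and 79.3 units in WT livers, and it passed in limma, downward, only without TAK1 KO replicate 1 (log2 -0.37, adjusted p = 0.0423). Tnfsfm13, the transcript that joins Tnfsf12 to its neighbour Tnfsf13, had 101.5 and 84.1 units in TAK1 KO and 98.8 and 94.3 units in WT livers. It overlaps Tnfsf12, and signal from the overlapping transcripts cannot be told apart here. Macrophages are a known source of several of these ligands. The marker counts that follow stand beside a share of 10.5% of all genes that rose. Of macrophage markers, 3 of 7 rose (Adgre1, Marco and Vsig4) and 0 fell, with sums of 7204.3 to 7632.2 units in TAK1 KO and 4096.1 to 4714.8 units in WT livers, while Cd5l, Itgam and Ccr2 were below 100 units on every array. NK cell markers rose in 1 of 7 cases, Klrd1, with sums of 1097.3 to 1406.7 units in TAK1 KO and 1135.9 to 1220 units in WT livers, most of it Prf1, and 5 of the 7, Ncr1 and Nkg7 among them, were below 100 units throughout.

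Members of the superfamily under other symbols were Eda2r and Relt, both receptors, the receptor Edar and its ligand Eda. Eda2r, which binds a form of ectodysplasin, had 121.1 and 119.5 units in TAK1 KO livers, against 138.4 and 138.5 units in WT livers. The groups were apart by more than either spread, but the gene missed the threshold (log2 -0.20 ± 0.09 SE, adjusted p = 0.194 in limma). Relt had 101.6 and 106.3 units in TAK1 KO and 116.5 and 104 units in WT livers, with overlap. Eda and Edar stayed between 59.5 and 74.3 units.

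Behind the receptors stand adaptors, ubiquitin ligases, kinases and enzymes that shed ligands and receptors. Of 40 such genes listed, Tradd, Traf3, Ripk1, Chuk and Map3k5 had no probe under their symbols and were not measured. Of 35 measured genes of this kind, taken for their place in the pathway, 5 rose in TAK1 KO livers and 1 fell in limma (background 10.5% and 7.71%; 20.2% and 15.2% among genes above 100 units on at least 1 array, where 27 of the 35 lay), with a median log2 difference of 0.05 (-0.00 over all genes). The largest rise was in Mlkl, the protein that breaks the membrane in necroptosis. It had 380.8 and 552.2 units in TAK1 KO livers, against 219.3 and 256.2 units in WT livers (log2 0.94 ± 0.16 SE, adjusted p = 0.00359), a call in limma that was lost without WT replicate 1 (adjusted p = 0.0616). The TAK1 KO arrays differed widely, but both were above the WT arrays. A second Mlkl probe had 102.1 and 124.2 units in TAK1 KO and 83.5 and 95.5 units in WT livers and did not pass (limma adjusted p = 0.114). Ripk3, the kinase that acts on it, had 106.6 and 106.3 units in TAK1 KO and 111.6 and 113.5 units in WT livers and did not pass (limma adjusted p = 0.686). Casp8, the protease that starts apoptosis and holds necroptosis back, did not pass either (log2 0.05 ± 0.10 SE). A second Casp8 probe had 253.9 and 246.8 units in TAK1 KO and 213.6 and 211.1 units in WT livers. Its groups were apart, but it did not pass (log2 0.23 ± 0.09 SE, limma adjusted p = 0.13 over all named probes).

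Map3k14, or NIK, the kinase of the noncanonical NF-kB pathway that Tnfrsf12a, Ltbr and Cd40 feed, had 136 and 144.6 units in TAK1 KO livers, against 80.5 and 85 units in WT livers. The WT values were below 100 units, so the rise is at least 1.38-fold (adjusted p = 0.000706 in limma). Tnip1, a partner of the inhibitor A20, had 281.9 and 361.3 units in TAK1 KO and 195.1 and 198.9 units in WT livers (log2 0.68 ± 0.12 SE, adjusted p = 0.00427). The call was lost without WT replicate 1 (adjusted p = 0.053) and in the mean of its 4 probes (0.0593). Tnfaip3, which encodes A20, was near background and did not pass (94.4 and 102.9 units in TAK1 KO, 82.4 and 92.9 units in WT).

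Siva1, which binds Cd27, had 548 and 629.9 units in TAK1 KO and 340.4 and 465.7 units in WT livers (log2 0.56 ± 0.15 SE, adjusted p = 0.0284 in limma), and missed the threshold with the smaller offset (0.0654) or without WT replicate 1 (0.196). Tab1, a subunit that binds and activates TAK1, had 442.1 and 431.1 units in TAK1 KO and 367.8 and 297.9 units in WT livers (log2 0.39 ± 0.11 SE, adjusted p = 0.0437). That call disappeared when WT replicate 2 was left out (adjusted p = 0.283), at the smaller offset (0.116), with quantile normalization (0.056), in the mean of its 4 probes (0.0942) and with the robust prior (0.053). Bag4, known as silencer of death domains because it binds the tail of TNF receptor 1, fell. It had 339.4 and 341.3 units in TAK1 KO livers, against 460.5 and 512.4 units in WT livers (log2 -0.51 ± 0.10 SE, adjusted p = 0.00567), a call lost without WT replicate 2 (0.0636). Adam17, the protease that sheds TNF and its receptors, had 440.2 and 528.9 units in TAK1 KO and 372.9 and 377.1 units in WT livers. It just missed the threshold (limma adjusted p = 0.0514). Adam17 narrowly passed in limma with a filter on dim genes (adjusted p = 0.0493), array weights (0.0498) or a replicate block (0.0468). The kinase gene Ikbkb missed the threshold downward (log2 -0.29 ± 0.09 SE, limma adjusted p = 0.0593). It had 209.1 and 202.9 units in TAK1 KO and 247.2 and 258.1 units in WT livers. Ikbkb passed in limma with quantile normalization (adjusted p = 0.0415) or the mean of all probes (0.0448). Without TAK1 KO replicate 1 the number of risen genes on this list was 10, and without WT replicate 1 it was 2. Without WT replicate 2 the number that fell was 0. Dividing cell markers rose in 3 of 3 cases and neutrophil markers in 3 of 5, where 10.5% of all genes rose. Dividing cell markers summed to 1314.6 to 2223 units in TAK1 KO and 589.7 to 613.6 units in WT livers. Neutrophil markers summed to 1071.8 to 1328.4 units in TAK1 KO and 434.5 to 592.9 units in WT livers. Of the neutrophil markers, Retnlg exceeded 100 units on only 1 array, and Elane and Mpo were below 100 units on every array. The part of these cells in these results was not tested.

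**Figure D4:**
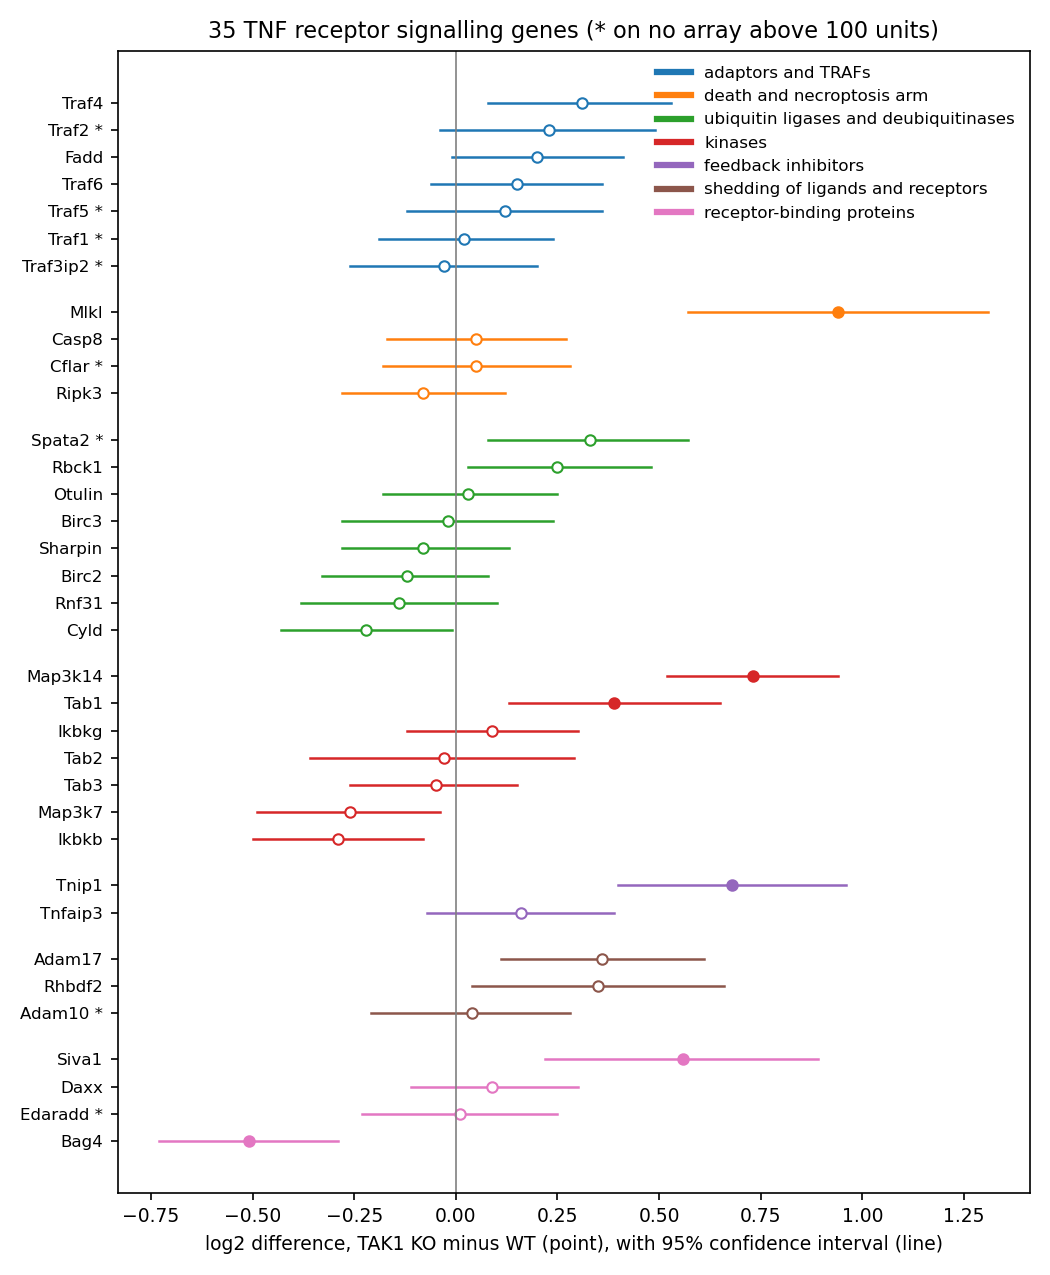
Log2 difference (TAK1 KO minus WT) with its 95% confidence interval for 35 genes that act behind TNF receptors, grouped by function, with filled points for adjusted p under 0.05. Mlkl, Map3k14, Tnip1, Siva1 and Tab1 lie right of 0 and Bag4 left, and an asterisk marks genes on no array above 100 units.

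Several ligands and their receptors were both measured, and each gene's own values are set side by side here without ranking one against the other. For TWEAK, Tnfsf12 was below 100 units in every sample and Tnfrsf12a was 7.36-fold higher in TAK1 KO. For Fas ligand, Fasl was below 100 units and Fas was 1.65-fold lower. For TNF, Tnf and Tnfrsf1b were below 100 units and Tnfrsf1a was 1.28-fold higher on its brightest probe. For TRAIL, Tnfsf10 was below 100 units and neither Tnfrsf10b nor the decoys passed. For the lymphotoxins and LIGHT, Lta, Ltb and Tnfsf14 were below 100 units and Ltbr was measured at 140.7 to 155.3 units with no difference beyond its spread. For RANKL, Tnfsf11 and Tnfrsf11a were below 100 units and Tnfrsf11b did not pass. Both sides were below 100 units on every array for Tnfsf4 and Tnfrsf4, Tnfsf9 and Tnfrsf9, Tnfsf15 and Tnfrsf25, Tnfsf18 and Tnfrsf18, and Tnfsf13b and Tnfrsf13c. Tnfrsf17, a further receptor for Tnfsf13b (BAFF), had 154.1 to 182.4 units and did not pass.

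**Figure D5:**
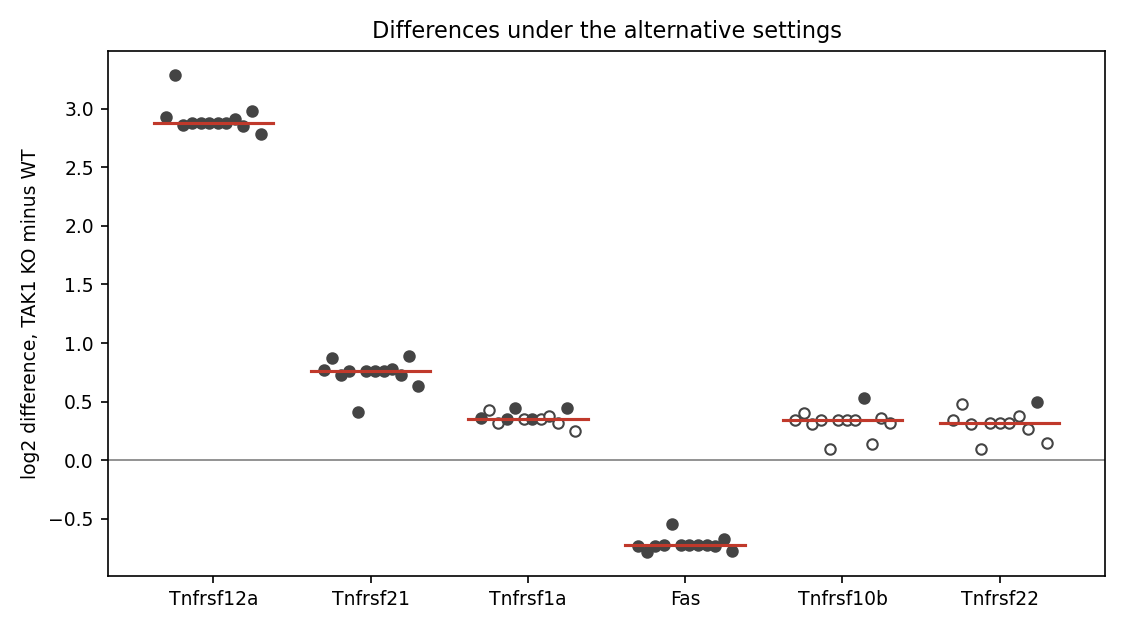
Log2 difference (TAK1 KO minus WT) of 6 receptors under the 12 alternative settings (points, 11 for Tnfrsf22, which the filter on dim genes drops, filled where the adjusted p is under 0.05), with a red line at the value reported. Tnfrsf12a stays between 2.78 and 3.29, Tnfrsf21 between 0.41 and 0.89 and Fas between -0.78 and -0.54, all filled, while most points of Tnfrsf1a (0.25 to 0.45), Tnfrsf10b and Tnfrsf22 are open.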

How the data were processed

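Whole-liver RNA from 2 TAK1 KO and 2 WT samples was amplified to biotin-labelled cRNA and hybridised to Illumina arrays, per the labels' protocols. The deposited values are intensity on a linear scale with nearly equal quantiles across arrays. The authors' normalization method is not stated in the labels or headers, and the values carry no detection calls. A further 4 columns of values before normalization match no sample's label and were not used. Of 25697 probes, 23978 name 1 gene, 0 name several and 1719 are unnamed. Intensities were background-corrected by normexp (offset 50) and log2-transformed, which draws differences of dim genes towards 0. The probe with the highest mean over the 4 arrays stood for each of 16593 genes, whatever its group difference. All genes were fitted with limma 3.58.1 (R 4.3.3; lmFit and eBayes, two-sided) and p-values adjusted by the Benjamini-Hochberg method over all of them, with 0.05 as the threshold. The fit was tested on simulated data. Single probes were fitted together over all named probes, an alternative chosen after seeing the data. An exact permutation test of 2 against 2 cannot go below 0.333 and was not used, and the number of arrays limits the precision. Where exactly 1 group lay under 100 units on its 2 arrays, a passing fold is a bound, at least the bright mean over the floor. Every superfamily gene above 100 units on any array, or past the threshold, is named with its values, and of the signalling genes those past the threshold whose groups do not overlap, with Map3k7. Ripk3, Casp8, Tnfaip3, Adam17 and Ikbkb are named besides, chosen after their values were seen. The members and lists were chosen with earlier results of these data known. The alternatives were no background correction, an offset of 16, quantile normalization, a filter on dim genes, the mean of all probes, a robust prior with trend, array weights, a replicate block and leaving out each array.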

Additional observations from a re-analysis of the deposited data

How the results depend on the processing

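Tnfrsf12a, Tnfrsf21 and Fas kept their direction and passed under all 12 alternative settings, with log2 differences of 2.78 to 3.29, 0.41 to 0.89 and -0.78 to -0.54. Tnfrsf1a kept its direction (0.25 to 0.45) and missed the threshold in 7 of them. The number of superfamily genes past the threshold ran from 3 to 6 when each array was left out in turn (2 to 4 higher and 1 to 2 lower). For all genes it ran from 1800 to 3304 (1035 to 1875 higher and 759 to 1429 lower), and for the signalling genes from 3 to 11 (2 to 10 higher and 0 to 1 lower). A group left with 1 array was assumed to vary like the other. With an offset of 16 or the mean of all probes 3 signalling genes were higher, and with quantile normalization or the mean of all probes 2 were lower; the cause was not tested. The labels give no pairing by replicate number, and deviations of same-numbered samples correlated at 0.05. With 2 samples a group the 2 pairs mirror each other and give 1 independent value, so a batch shared by number cannot be shown or dismissed. With the replicate block 3 superfamily genes passed, 2 higher and 1 lower, as did 3067 of all genes and 8 signalling genes. Tnfrsf1a then had an adjusted p of 0.0517 in limma. Of 269 comparisons of single genes with their reported values, over 22 genes, 245 kept their direction and their side of the threshold, 18 lost the call, 2 gained it and 4 changed sign without passing before or after. These were Cd40 (-0.02 with the mean of all probes), Ltbr (0.03 without WT replicate 1 and 0.06 without TAK1 KO replicate 2) and Tnfsfm13 (0.07 without TAK1 KO replicate 2); the cause was not tested. With each array left out in turn Ltbr ran from -0.08 to 0.06 and Tnfsfm13 from -0.19 to 0.07. Dim genes limit what can be seen: 27 of the 42 lay below 100 units on all arrays.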
